A study of Rattus norvegicus with 12 samples.

Results

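Ferroportin, encoded by Slc40a1, and 7 other genes of cellular iron handling were followed in astrocytes given epidermal growth factor (EGF). The 8 genes were Slc40a1, Cp, Tfrc, Slc11a2, Fth1, Ftl1, Ireb2 and Aco1, and 14 of the array's 31099 probe sets carry one of these symbols. All 14 were bright enough to be tested, among 18625 tested in all. Where a gene had several probe sets, the one with the highest mean signal over the 12 arrays leads, and the others are given beside it. Slc40a1 was selected on its low signal after 4 h of EGF, so its values at 4 h, and every value that uses the 4 h arrays, are given as a description with no test. Its 12 h values come from other arrays and were tested. The other 7 genes, and a wider list of iron genes used below, were also chosen with earlier results of these data known. Their p-values and counts carry that limit. The leading Slc40a1 probe set was chosen narrowly: probe set 1387130_at had a mean signal of 2087.05, against 2085.63 for 1390412_at.

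The cells were primary rat astrocytes from the optic nerve head, the place at which the nerve leaves the eye. The 4 groups were cultures with EGF for 4 h, their untreated controls, cultures with EGF for 12 h, and a second set of untreated controls, with 3 Affymetrix 1-colour arrays each, and every SD below is over those 3 arrays. The labels used here name no strain, age or EGF dose. The groups were taken from the sample titles, since the descriptions call every sample control astrocytes, and whether the 3 samples of a group came from separate cultures is not stated. If they did not, the p-values measure only technical spread.

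Ferroportin is the only known exporter of iron from mammalian cells, and ceruloplasmin, the product of Cp, oxidises the exported iron so that transferrin can take it up. Iron enters through the transferrin receptor (Tfrc) and leaves the endosome through the divalent metal transporter DMT1 (Slc11a2), and the excess is stored in ferritin, built from the heavy (Fth1) and light (Ftl1) chains. The iron regulatory proteins IRP1 (Aco1) and IRP2 (Ireb2) bind stem-loops in these mRNAs when iron is low, which stabilises the Tfrc mRNA and blocks translation of ferritin and ferroportin. The arrays measured mRNA and not translation or protein. In brain, astrocytes lie between the blood vessels and the neurons, and carry ceruloplasmin on their surface.

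The largest differences among the 8 genes were in the exporter and in the transferrin receptor, and they had opposite signs. On its leading probe set, Slc40a1 signal was 20.4-fold lower with EGF than in controls at 4 h, the comparison that selected it, and 2.98-fold lower at 12 h. Its other probe sets were 12.2-fold and 6.08-fold lower at 4 h, and 4.43-fold and 4.01-fold lower at 12 h. Tfrc signal was 4.71-fold higher at 4 h and 2.82-fold higher at 12 h. Cp and the leading Slc11a2 probe set fell at 12 h, by 2.71-fold and 2.10-fold. The ferritin probe sets, Ireb2 and Aco1 did not pass the test for EGF at either time.

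The sequences just before the RefSeq start sites of Slc40a1 and Tfrc are shown because these genes had the largest differences and opposite signs. Each is 250 bases from the RefSeq promoter table (GRCr8), 5′ to 3′ on the minus strand, at chr9:55543461-55543710 for Slc40a1 and chr11:81690319-81690568 for Tfrc. Capitals mark matches to the searched motifs.
Slc40a1: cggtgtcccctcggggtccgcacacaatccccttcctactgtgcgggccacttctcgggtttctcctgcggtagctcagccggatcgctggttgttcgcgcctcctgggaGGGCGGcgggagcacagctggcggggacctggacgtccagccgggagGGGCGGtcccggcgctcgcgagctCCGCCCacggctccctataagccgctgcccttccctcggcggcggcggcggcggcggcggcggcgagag
Tfrc: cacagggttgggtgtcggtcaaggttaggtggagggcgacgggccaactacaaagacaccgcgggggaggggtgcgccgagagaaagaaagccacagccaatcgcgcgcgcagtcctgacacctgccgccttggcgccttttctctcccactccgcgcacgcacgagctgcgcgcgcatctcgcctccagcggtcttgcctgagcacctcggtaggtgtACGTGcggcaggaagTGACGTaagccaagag

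Both strands were searched for 5 motifs, chosen after the sequences had been looked at. They were the GC box GGGCGG, present in 30.5% of the 33469 promoters of this length in the table, the hypoxia response core ACGTG (16.6%), the cyclic AMP response core TGACGT (6.95%), the AP-1 site TGANTCA (6.34%) and the antioxidant response core TGACNNNGC (10.1%). TGACGT and ACGTG can overlap, but did not here. The Slc40a1 sequence held 3 GC boxes, the last of them on the reverse strand, and no match to the other 4 motifs. The Tfrc sequence held 1 ACGTG, starting 31 bases before the start, and 1 TGACGT, starting 16 bases before it, and no GC box. Of the other members in the table, Aco1 had 3 GC boxes, Ireb2 had 2, one of the 2 Slc11a2 promoters had 4, and Cp had no match. Fth1 and Ftl1 had no entry. A match of letters is a description and not evidence of binding.

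Slc40a1 had its highest signals in the 4 h controls, at 7045.9, 6362.2 and 7165.4 in replicates 1 to 3 (mean 6858 ± 433). The 4 h EGF arrays read 197.0, 323.9 and 488.6 (336.5 ± 146). Each EGF array at 4 h was below every control array, and the replicates varied more in relative terms with EGF than without it. The log2 difference, on log2(signal + 24.4) here and throughout, was -4.33 ± 0.28 (SE), the second lowest of 10261 genes in that comparison, which is the comparison that selected the gene.

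At 12 h the Slc40a1 controls read 1008.9, 915.9 and 666.7 (863.8 ± 177) and the EGF arrays 228.9, 268.6 and 372.6 (290.0 ± 74.2). The groups did not overlap, although the controls were far below the 4 h controls. Slc40a1 fell with EGF at 12 h (log2 -1.50 ± 0.28, limma, adjusted p = 0.000998), and the estimate lay between -1.91 and -1.31 over the alternatives, with adjusted p from 4.54e-05 to 0.00706. In order of level, the 4 h control came first, the 12 h control second, and both EGF groups last; those last groups overlapped, with 197.0 to 488.6 at 4 h and 228.9 to 372.6 at 12 h. The smaller difference at 12 h thus went with a lower control and similar EGF signals: the control mean was 7.94-fold lower at 12 h than at 4 h (log2 -2.97 ± 0.28), and the EGF effect at 12 h minus that at 4 h was 2.83 ± 0.40.

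The other Slc40a1 probe sets had the same signs and different sizes. The second, nearly as bright as the first, read 5993.7, 6511.1 and 5936.2 in the 4 h controls and 541.1, 440.3 and 528.0 with EGF. At 12 h it read 1451.0, 1480.6 and 1210.0 in controls and 390.4, 248.9 and 296.3 with EGF. The groups of each time were again apart, with log2 differences of -3.55 ± 0.18 at 4 h and -2.08 ± 0.18 at 12 h (adjusted p = 1.57e-06), and of -2.14 ± 0.18 between the controls. The third and dimmest read 555.2 to 1272.3 in the 4 h controls and 94.3 to 167.8 with EGF, then 359.2 to 477.1 and 7.0 to 184.9 at 12 h. Its log2 differences were -2.37 ± 0.57 at 4 h and -2.15 ± 0.57 at 12 h (adjusted p = 0.00999), and its difference between the times was 0.21 ± 0.81. Averaged over the 3 probe sets, the 4 h difference was -3.42 and the difference between the times 1.51, so the gap between 4 h and 12 h depended on the probe set while the fall at 12 h was called on each.

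**Figure D1:**
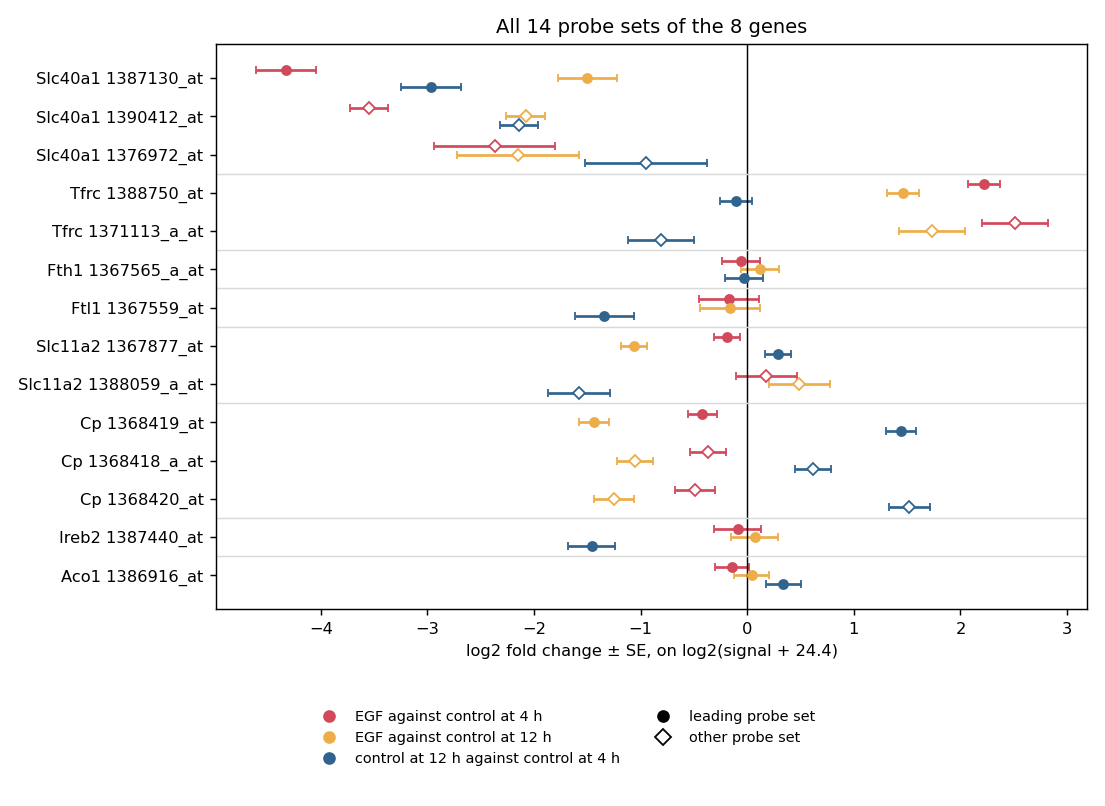
Log2 fold changes (EGF over control at 4 h and at 12 h, and 12 h control over 4 h control, on log2(signal + 24.4)) of the 14 probe sets of the 8 genes, with bars of 1 SE from the limma fit. The 3 Slc40a1 probe sets lie left of 0 in each comparison, while the 2 Slc11a2 probe sets lie on opposite sides of 0 at 12 h.

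Several measures moved with the same groups. The replicate 3 pair at 4 h formed a set of its own by its hybridisation controls, where bioD read 31269 and 34315 against 5.60 to 132.5 on the other arrays. The 3′ to 5′ signal ratio of actin, a sign of RNA or labelling quality, was 1.20 to 1.61 on the 4 h arrays and 11.1 to 21.7 on the 12 h arrays, except for 1.24 on EGF replicate 3 at 12 h. For this reason time, array set and 3′ to 5′ ratio cannot be told apart between the controls. Without the replicate 3 pair the Slc40a1 difference at 4 h was -4.60, and without EGF replicate 3 at 12 h the 12 h difference was -1.68. Centring each array on its median moved the median of all tested probe sets from -0.15 to 0.04 at 4 h and from 0.08 to 0.24 between the controls, and gave Slc40a1 differences of -4.14 with EGF at 4 h, -1.43 with EGF at 12 h and -2.81 between the controls.

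Of 11 astrocyte markers on the array, 6 were tested. Vim, S100b, Slc1a3 and Gja1 passed at neither time. Glul fell with EGF at 12 h (log2 -1.28, limma, adjusted p = 2.83e-05) but did not pass at 4 h (adjusted p = 0.454). Aldoc had means of 160.5 and 85.6 at 4 h, and 2655 and 31.0 at 12 h, in controls and EGF. It was bright enough to be tested only through the 12 h controls, so its values are a description. Gfap, the astrocyte intermediate filament, had a mean signal of 185.4, under the 215.4 set as the lowest mean to test. Slc1a2, Aqp4, Aldh1l1 and Fabp7 were also under it. The 11 astrocyte markers summed to 125702 to 137966 and 131944 to 159453 at 4 h, in controls and EGF. At 12 h they summed to 147579 to 153894 and 138472 to 199354. The brightest of them were Vim and Gja1, with means of 72429 and 67135, so these sums mostly reflect those 2 genes and not the other astrocyte markers. Macrophages and microglia also express ferroportin; 9 of their 12 markers were under that limit, and the summed signal of the 12 was 1440 to 1653 in the 4 h controls, 951 to 1277 with EGF at 4 h, 1134 to 1194 in the 12 h controls and 1792 to 2518 with EGF at 12 h. The 11 oligodendrocyte lineage markers, 6 of them under the limit, summed to 9931 to 10556 and 5622 to 6466 at 4 h, and to 12931 to 14107 and 6226 to 7767 at 12 h, in controls and EGF. The 8 fibroblast and meninges markers, all tested, summed to 204009 to 233433 and 172987 to 190040 at 4 h, and to 192446 to 206733 and 89730 to 150648 at 12 h. The oligodendrocyte and fibroblast sums were lower with EGF at both times, although Cspg4, an oligodendrocyte lineage marker, rose at 12 h (2.01, adjusted p = 0.00152). The microglial sum was lower with EGF at 4 h and higher at 12 h. Aif1 and Csf1r did not pass at 4 h or at 12 h (-0.05 and 0.42 at 12 h, limma, adjusted p = 0.927 and 0.433). Cd68 had means of 47.2 and 72.4 at 4 h, and 62.1 and 924.1 at 12 h, in controls and EGF. It reached the limit only through the 12 h EGF arrays, so its higher signal there is a description. The 7 endothelial and pericyte markers, 5 under the limit, summed to 2973 to 3367 in controls and 3753 to 4056 with EGF at 4 h, and to 2663 to 3309 and 1550 to 2133 at 12 h; of the 2 tested, Flt1 rose at both times (3.21 and 2.32) and Tek fell at both (adjusted p = 0.00149 and 0.00029). The 8 neuron markers, 7 under the limit, summed to 1721 to 1870 and 1869 to 2339 at 4 h, and to 381 to 1023 and 1134 to 1954 at 12 h. Their part in the iron gene results was not tested. In whole cultures, fewer cells of a type and less RNA per cell cannot be told apart.

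Cp, the ferroxidase partner of ferroportin, was lower with EGF at 12 h and higher in the 12 h controls than in the 4 h controls. Its leading probe set, 1368419_at, read 7434.5, 7556.9 and 7976.7 in the 12 h controls (7656 ± 284) and 2857.4, 3145.0 and 2459.5 with EGF (2821 ± 344). Every EGF array was below every control array by a wide margin. Cp fell at 12 h (log2 -1.44 ± 0.14, adjusted p = 3.58e-06). At 4 h the controls read 2586.0, 2650.7 and 3248.5 (2828 ± 365) and the EGF arrays 2281.2, 1963.5 and 2050.1 (2098 ± 164). These groups were also apart, but close. The 4 h difference of -0.42 ± 0.14 passed the test (adjusted p = 0.0356), and it did not with the replicate number as a block (adjusted p = 0.0574), with arrays centred on their medians (-0.23, adjusted p = 0.408) or without the replicate 3 pair (-0.30, adjusted p = 0.204). It was also lost on leaving out replicate 2 or 3 of either 4 h group, or control replicate 1 or 2 of 12 h. Its adjusted p ran from 0.00432 to 0.408 over the alternatives.

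The 12 h Cp controls exceeded the 4 h controls by 1.44 ± 0.14 (adjusted p = 9.44e-06), so that EGF cultures at 12 h lay at the level of the 4 h controls, with overlapping arrays. The EGF effect was lower at 12 h than at 4 h (-1.02 ± 0.19, adjusted p = 0.00491), which did not pass on the other probe sets (-0.69 and -0.77, adjusted p = 0.0897 and 0.0786). Both other Cp probe sets fell at 12 h (log2 -1.05, adjusted p = 0.000372, and -1.25, adjusted p = 0.000162), and neither passed at 4 h (-0.37 and -0.49, adjusted p = 0.140 and 0.0667). Both were higher in the 12 h controls, by 0.62 and 1.52. Ceruloplasmin mRNA is spliced into secreted and membrane-anchored forms, and the probe sets were not assigned to either.

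Tfrc, the receptor that brings in transferrin-bound iron, rose with EGF at both times. On probe set 1388750_at the 4 h controls read 1660.7, 1453.1 and 1683.3 (1599 ± 127) and the EGF arrays 7797.3, 7237.0 and 7580.7 (7538 ± 283). At 12 h the controls read 1415.0, 1540.1 and 1475.5 (1477 ± 62.6) and the EGF arrays 3720.0, 3637.8 and 5118.1 (4159 ± 832). All 6 controls lay in one narrow band and all 6 EGF arrays above it, with the 4 h EGF arrays highest and replicate 3 the highest of the 12 h EGF arrays. The rise was 2.22 ± 0.15 at 4 h (adjusted p = 1.83e-07) and 1.46 ± 0.15 at 12 h (adjusted p = 5.16e-06), ranks 134 and 389 from the top of 10261 genes.

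In contrast to Slc40a1 and Cp, the Tfrc controls overlapped, with a difference of -0.11 ± 0.15 (adjusted p = 0.558). The EGF effect was smaller at 12 h (-0.76 ± 0.21, adjusted p = 0.0299). That call was lost with the mean over both probe sets (adjusted p = 0.109), without the replicate 3 pair (adjusted p = 0.0650), and on leaving out any single array other than control replicate 3 at 4 h and EGF replicates 1 and 3 at 12 h. The second Tfrc probe set rose by 2.51 ± 0.31 at 4 h and 1.73 ± 0.31 at 12 h (adjusted p = 5.64e-05 and 0.000771). It read 398.8 to 738.7 in the 4 h controls and 2365.4 to 3621.7 with EGF, then 242.5 to 295.7 and 701.4 to 1595.3 at 12 h, and its controls were lower at 12 h (-0.81, adjusted p = 0.0490).

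**Figure D2:**
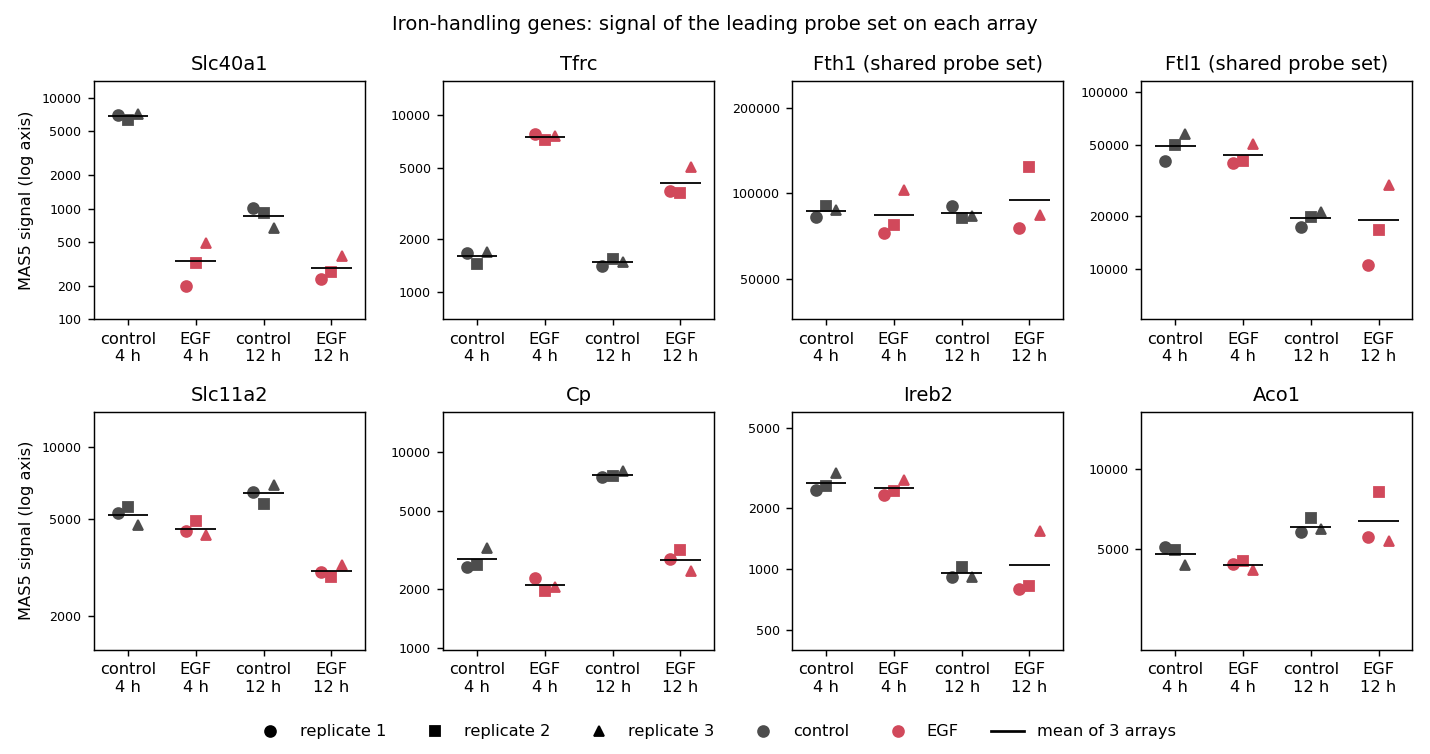
MAS5 signal (log axis) of the leading probe set of each of the 8 genes on each of the 12 arrays, with control in grey, EGF in red, a symbol per replicate and a bar at the mean of 3 arrays. Slc40a1 lies between 197.0 and 488.6 on the 6 EGF arrays and from 666.7 upwards on all controls, Tfrc lies above its controls on all EGF arrays, and the Fth1, Ireb2 and Aco1 groups of each time overlap.

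Slc11a2 encodes DMT1, which moves iron out of the endosome. Its leading probe set, 1367877_at, read 6502.6, 5790.4 and 6953.1 in the 12 h controls (6415 ± 586) and 3033.7, 2900.6 and 3235.9 with EGF (3057 ± 169). These arrays were apart and the EGF arrays close together, and the leading probe set fell (log2 -1.06 ± 0.12, adjusted p = 2.04e-05). At 4 h the controls read 5331.0, 5611.5 and 4752.9 and the EGF arrays 4464.1, 4937.2 and 4295.3, which overlapped (-0.19 ± 0.12, adjusted p = 0.271). The effect was lower at 12 h than at 4 h (-0.87 ± 0.17, adjusted p = 0.00647).

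The second Slc11a2 probe set, 1388059_a_at, did not show this. It read 455.5, 590.7 and 649.7 in the 12 h controls and 566.5, 625.1 and 1397.7 with EGF, with a difference of 0.49 ± 0.29 (adjusted p = 0.218), and 0.18 ± 0.29 at 4 h (adjusted p = 0.699). Its 12 h controls were lower than the 4 h controls, which read 1794.9, 1568.8 and 1820.7 (log2 -1.58 ± 0.29, adjusted p = 0.000998), whereas the leading probe set differed by 0.29 (adjusted p = 0.0677, or 0.0363 on omitting the third EGF array of 12 h) in the other direction. With the mean of both probe sets the 12 h difference was -0.29 (adjusted p = 0.216) and the difference between the times -0.28 (adjusted p = 0.498). The fall of Slc11a2 at 12 h is therefore a result of 1 of its 2 probe sets. Slc11a2 transcripts differ in their 3′ ends, with and without a stem-loop for the iron regulatory proteins, and the probe sets were not assigned to these forms.

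The ferritin chains are on probe sets shared with copies: that of Fth1 also carries Fth1-ps5, and that of Ftl1 carries Ftl1-ps14, Ftl1l2 and further loci, so neither value belongs to 1 gene. The Fth1 probe set read 82401.6, 90568.3 and 87320.5 in the 4 h controls and 72477.0, 77594.3 and 102433.7 with EGF. At 12 h it read 90268.6, 81581.2 and 83181.6, and 75393.4, 123858.2 and 83789.1. EGF and control overlapped at both times, with differences of -0.06 ± 0.18 and 0.12 ± 0.18 (adjusted p = 0.844 and 0.640), and the controls differed by -0.03 (adjusted p = 0.905).

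The Ftl1 probe set read 40979.2, 49842.6 and 57556.1 in the 4 h controls and 39767.2, 40922.2 and 51101.2 with EGF. At 12 h it read 17372.1, 19819.6 and 20936.2 in controls and 10493.3, 16635.0 and 29881.1 with EGF. The EGF arrays of 12 h spread on both sides of the controls, and all 6 arrays of 12 h lay below all 6 of 4 h. EGF differences were -0.17 ± 0.28 and -0.16 ± 0.28 (adjusted p = 0.708 and 0.698), and the 12 h controls were 2.55-fold lower than the 4 h controls (log2 -1.34 ± 0.28, adjusted p = 0.00202). Without EGF replicate 3 at 12 h, the array with the low 3′ to 5′ ratio, the 12 h difference was -0.55 (adjusted p = 0.0349).

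Ireb2, encoding IRP2, which is degraded when iron is plentiful, read 2457.1, 2587.5 and 2998.2 in the 4 h controls and 2339.9, 2429.9 and 2770.5 with EGF. At 12 h it read 920.6, 1028.4 and 920.4 in controls and 800.6, 825.6 and 1539.6 with EGF. EGF and control overlapped at 4 h and, through EGF replicate 3, at 12 h. The differences were -0.09 ± 0.22 and 0.07 ± 0.22 (adjusted p = 0.799 and 0.817), and -0.23 (adjusted p = 0.256) at 12 h without EGF replicate 3. The 12 h controls were 2.80-fold lower than the 4 h controls (log2 -1.46 ± 0.22, adjusted p = 0.000233).

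Aco1 encodes IRP1, which is cytosolic aconitase when it holds an iron-sulfur cluster. It read 5079.5, 4957.2 and 4340.1 in the 4 h controls and 4382.8, 4492.9 and 4177.2 with EGF, then 5780.1, 6529.3 and 5950.6, and 5575.8, 8234.8 and 5371.7 at 12 h. The groups of each time overlapped. Differences were -0.14 ± 0.16 at 4 h, 0.04 ± 0.16 at 12 h and 0.34 ± 0.16 between the controls (adjusted p = 0.565, 0.846 and 0.0853). The last was called without EGF replicate 2 or 3 of 12 h (adjusted p = 0.0302 and 0.0396).

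Counted over the leading probe sets, EGF at 4 h raised 1 (Tfrc) and lowered 1 (Cp) of the 7 that could be tested, and 5 did not pass; over all probe sets tested, 11.4% were called higher and 16.5% lower. At 12 h 1 of 8 rose (Tfrc) and 3 fell (Slc40a1, Slc11a2 and Cp), against 15.3% higher and 20.8% lower over all. That count includes Slc40a1, which was selected for a low signal with EGF at 4 h, and Slc11a2, which fell on 1 of its 2 probe sets. Between the controls 1 of 7 was higher at 12 h (Cp) and 2 lower (the Ftl1 probe set and Ireb2), against 23.8% and 21.7%. The EGF effect was lower at 12 h than at 4 h for 3 of 7 (Tfrc, Slc11a2 and Cp) and higher for 0 (also 0 at an unadjusted p under 0.05 in limma), against 6.11% and 5.45%. Slc40a1 is not among those 7, and its untested difference had the opposite sign (2.83 ± 0.40). The calls of Tfrc and Slc11a2 were lost with the mean over their probe sets, and that of Cp did not pass on its other probe sets. In all probe sets tested, EGF arrays lay wholly above the controls for 18.3% and wholly below for 29.8% at 4 h, and for 19.7% and 28.3% at 12 h. The median log2 difference was -0.14 over the 7 genes and -0.15 over all tested probe sets at 4 h, and -0.06 over the 8 genes and -0.06 over all at 12 h. At 4 h and between the controls the counts of members are near the shares over all probe sets. No reading is taken from the counts of members in any comparison.

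A wider list of 80 genes of iron, heme and copper handling held 72 on the array and 63 tested. At 4 h 11 of the 63 rose and 15 fell, and at 12 h 9 rose and 23 fell, with medians of -0.15 and -0.21. Over all probe sets tested, 11.4% rose and 16.5% fell at 4 h, and 15.3% rose and 20.8% fell at 12 h, and every sub-list count below stands against these shares. The 15 that fell at 4 h were 5 with arrays centred on their medians, and 9 without the replicate 3 pair, and the 11 that rose were 19 without EGF replicate 3 at 12 h, so these counts are loose. Without control replicate 3 at 12 h, 5 rose at 12 h. Among the 10 tested genes of iron uptake and reduction, 1 rose and 5 fell at 4 h, and 2 rose and 5 fell at 12 h. Scara5, a receptor that takes up ferritin, read 13570.7, 14062.4 and 13117.8 in the 4 h controls and 5500.0, 4932.9 and 4477.6 with EGF, then 9183.6, 10858.2 and 16392.5, and 1018.4, 583.9 and 550.9 at 12 h. Its groups were apart at both times, and it fell at 4 h (log2 -1.45 ± 0.23) and at 12 h (-4.05 ± 0.23, adjusted p = 0.000421 and 3.27e-08). Slc39a8, a zinc, manganese and iron importer, fell at both times (-0.86 and -2.20), as did Mcoln1, a lysosomal cation channel (-0.86 and -1.84). Steap3, the endosomal ferrireductase that works with the transferrin receptor, rose by 1.13 and 1.04. The 4 h call of Slc39a8 was lost with median centring and without the replicate 3 pair (adjusted p = 0.0670 and 0.0607). Steap3 lost its 4 h call without replicate 2 of either group, and its 12 h call without replicate 3 of either (adjusted p up to 0.0613).

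Of 6 tested genes around export and hepcidin, the hormone that degrades ferroportin, 1 rose and 1 fell at 4 h, and 1 rose and 3 fell at 12 h. Bmp6, the signal that drives hepcidin in liver, fell at both times (-0.43 and -0.90), Furin, which processes the hepcidin precursor, rose by 0.97 and 0.73, and Neo1 fell at 12 h (-0.77, and -0.42 at 4 h, adjusted p = 0.0810). With the mean over its probe sets Bmp6 had no called difference at 12 h (-0.06, adjusted p = 0.870), and its 4 h call was lost in 11 of 24 alternatives, among them that mean and median centring (-0.28 and -0.23, adjusted p = 0.445 and 0.439), and on leaving out EGF replicate 2 or 3 or control replicate 1 or 2 of 4 h, or control replicate 1 or 2 of 12 h. The 12 h call of Furin was lost without control replicate 2 or 3 or EGF replicate 2 of that time (adjusted p up to 0.0856), and that of Neo1 with the mean over its probe sets (-0.45, adjusted p = 0.0671). Of 6 genes of sensing, iron chaperones and ferritin turnover, 3 rose at 4 h, and 1 rose and 2 fell at 12 h. Fbxl5, the iron-sensing ubiquitin ligase subunit that degrades IRP2, changed sign: its mean was 13515 with EGF against 6473 in controls at 4 h, and 6060 against 10538 at 12 h (log2 1.06 and -0.84, adjusted p = 0.00235 and 0.00754). Epas1, encoding HIF-2alpha, rose by 0.71 at 4 h and did not pass at 12 h (-0.45, adjusted p = 0.0596). Pcbp1, an iron chaperone, rose by 0.46 and 0.56, with the 4 h call lost without the replicate 3 pair (adjusted p = 0.0730), EGF replicate 1 or 2, or control replicate 2 or 3.

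Mitochondrial iron and iron-sulfur cluster genes went in both directions, with 1 higher and 3 lower of 11 at 4 h and 2 and 4 at 12 h. Slc25a37, the mitochondrial iron importer mitoferrin-1, read 531.3, 368.6 and 753.2 in the 4 h controls and 3428.8, 2951.1 and 2846.7 with EGF, then 776.9, 574.6 and 574.8, and 1292.2, 1084.0 and 1201.5 at 12 h. EGF arrays lay above the controls at both times, by 2.48 ± 0.23 and 0.88 ± 0.23 (adjusted p = 4.04e-06 and 0.00877). The cluster assembly genes Hscb (-1.22 and -0.75), Iscu (-0.40 and -0.82) and Isca1 (-0.49 and -0.82) fell at both times, and Glrx5 rose at 12 h by 1.10 (0.59 at 4 h, adjusted p = 0.136). The 12 h EGF arrays of Glrx5 read 5964.8, 4241.5 and 11133.1, with replicate 3 the highest. Its 12 h call was kept in all 24 alternatives, with values from 0.72 to 1.41. The 4 h falls of Iscu and Isca1 were lost with median centring (-0.20 and -0.30, adjusted p = 0.358 and 0.332), that of Isca1 also with the replicate block (adjusted p = 0.0506) and without any single array of 4 h or any control of 12 h, and the 12 h fall of Isca1 with the mean over its probe sets (-0.23, adjusted p = 0.141). Slc25a28, the related importer mitoferrin-2, singled out after its values were seen, had means of 935.4 and 1371 in controls and EGF at 4 h (0.55, adjusted p = 0.0900) and fell at 12 h, from 1973 to 1227 (-0.72, adjusted p = 0.0257). That 12 h call was lost without any 1 control of 12 h or EGF replicate 3 (adjusted p up to 0.0797 over the alternatives). Heme synthesis had 4 of 8 lower and 0 higher at 4 h, and 3 lower and 0 higher at 12 h; at an unadjusted p under 0.05 in limma, 0 were higher at either time. Ppox fell at both times (-1.05 and -0.64), Fech (-0.74) fell at 4 h (12 h adjusted p = 0.144), and the mitochondrial transporter Abcb10 fell at 12 h (-0.94, with a 4 h adjusted p = 0.105). Uros, a dim gene, had means of 224.1 and 94.4 in controls and EGF at 4 h (-1.25; 12 h adjusted p = 0.286). It was bright enough to be tested only through the 12 h controls (mean 398.1), so its values are a description. It is still counted among the 4 lower at 4 h. That call was lost in 14 of 23 alternatives, with values from -1.74 to -0.44 and adjusted p up to 0.390. Among them were leaving out any array of 4 h but EGF replicate 1, or any control of 12 h. The 12 h call of Abcb10 was lost with the mean over its probe sets (-0.46, adjusted p = 0.0614).

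Of 11 genes of heme breakdown and transport, 2 rose and 1 fell at 4 h, and 1 rose and 4 fell at 12 h. The gene that rose at 12 h was Hmox2, heme oxygenase 2 (log2 0.92, limma, adjusted p = 0.0447). Its 12 h EGF arrays read 959.0, 1412.7 and 3528.2, against controls of 898.8, 894.1 and 854.0. The highest was EGF replicate 3, the array with the low 3′ to 5′ ratio. Hmox1, heme oxygenase 1, which frees iron from heme, read 5975.2, 4928.3 and 4053.7 in the 4 h controls and 15450.7, 14116.0 and 11192.6 with EGF. At 12 h it read 4472.9, 4167.7 and 3815.5, and 2944.0, 3068.4 and 2941.7. It was above all controls at 4 h and below all controls at 12 h, with differences of 1.45 ± 0.16 and -0.47 ± 0.16 (adjusted p = 1.81e-05 and 0.0324). The 12 h call was lost with median centring (-0.40, adjusted p = 0.146) and without EGF replicate 1 or 2 or control replicate 1 or 2 of that time. Flvcr1, described as a heme exporter and choline transporter, rose at 4 h by 0.71 (0.32 at 12 h, adjusted p = 0.119). The heme transporter Slc48a1 fell at both times (-0.63 and -1.03), and Slc46a1 fell at 12 h (-1.21, and 0.26 at 4 h, adjusted p = 0.605). The 4 h call of Slc48a1 was lost with median centring (-0.44, adjusted p = 0.106), and the 12 h call of Slc46a1 in the fit of that experiment alone and without control replicate 3 (adjusted p = 0.0533 and 0.0512).

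Of 7 transcription factors and partners known to act on iron and heme genes, 2 rose and 1 fell at 4 h, and 2 rose and 2 fell at 12 h. Maff, a small Maf protein, rose by 1.71 and 2.41, and Keap1, the inhibitor of NRF2, fell at both times (-0.61 and -0.47). The Keap1 calls were lost with median centring (-0.41 and -0.40, adjusted p = 0.113 and 0.0963) and with the mean over its probe sets (-0.73 and -0.10, adjusted p = 0.121 and 0.848), at 4 h without control replicate 1, and at 12 h without any single array of that time but EGF replicate 1. Nfe2l2, encoding NRF2, fell at 12 h (-0.61) and was not called at 4 h (0.37, adjusted p = 0.0555). Without EGF replicate 3 at 12 h the 4 h differences of Nfe2l2, Glrx5, Abcb10, Neo1 and Slc25a28 passed (adjusted p = 0.00569, 0.0153, 0.0149, 0.0350 and 0.0217). Of 4 genes of copper supply to ceruloplasmin, the copper importer Slc31a1 rose at 4 h by 0.61 (-0.03 at 12 h, adjusted p = 0.866), and the copper pumps Atp7a (0.29 and -0.11) and Atp7b (0.02 and -0.15) passed at neither time.

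**Figure D3:**
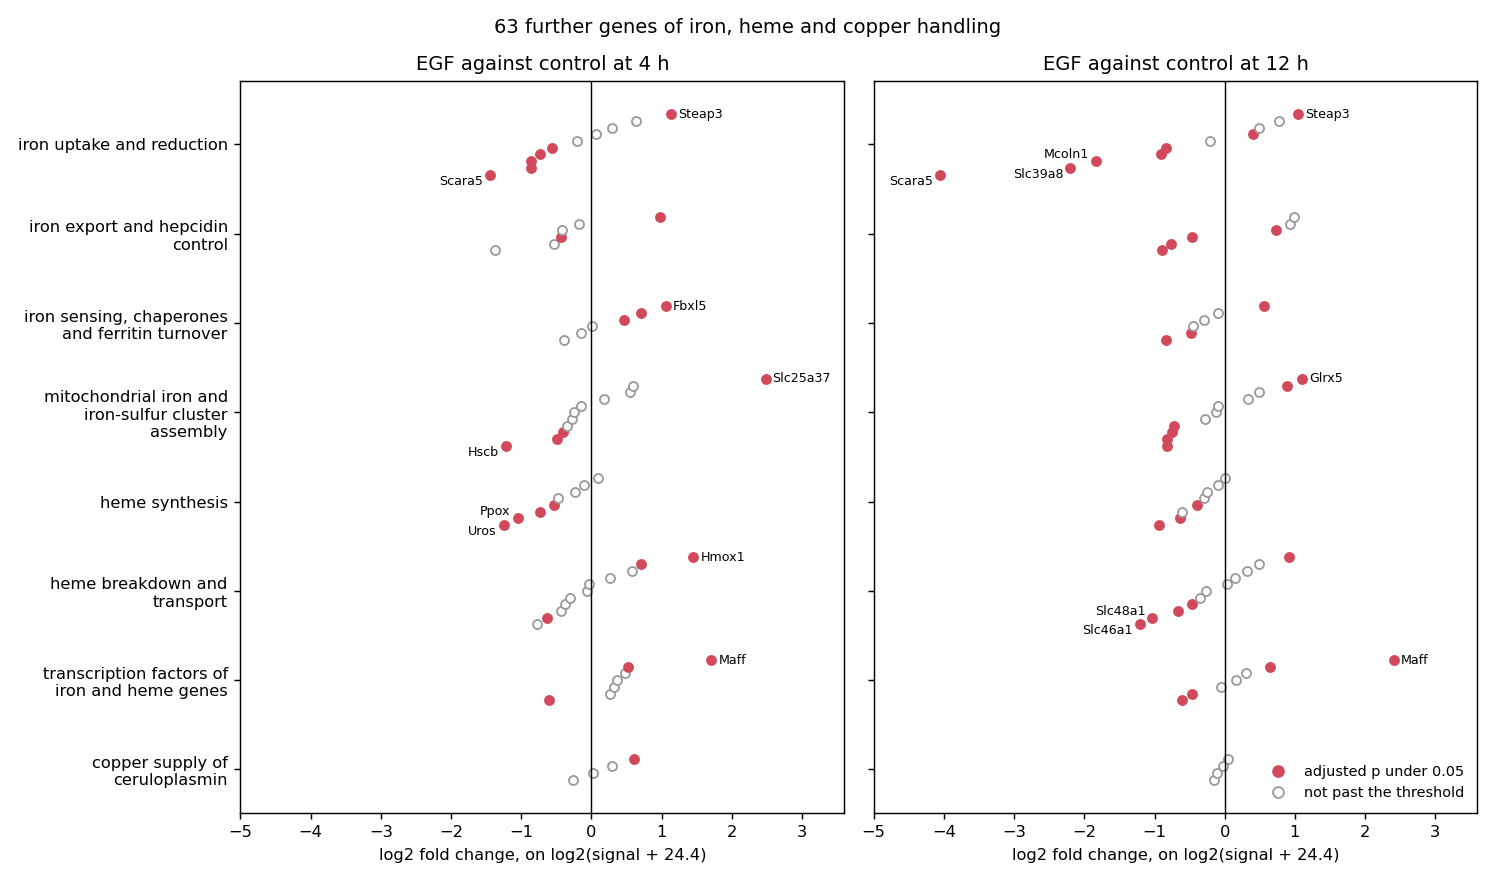
Log2 fold change (EGF over control, on log2(signal + 24.4)) at 4 h and 12 h of the 63 tested genes of the wider list, in 8 sub-lists, with genes past an adjusted p of 0.05 filled, and named where they also changed by at least 1 log2 unit. Scara5 is the farthest to the left at 12 h at -4.05, and Slc25a37 the farthest to the right at 4 h at 2.48.

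The genes nearest to Slc40a1 over the 12 arrays were found by the root-mean-square difference of log2 signal after each gene was centred on its own mean. They were Strip2 (0.70), Arhgef26 (0.74), Filip1l (0.82), Meox2 (0.83) and Lims2 (0.83), with 1.86 as the median of all other genes. For scale, the other Slc40a1 probe sets stood at 0.50 and 1.02. Each of the 5 was highest in the 4 h controls; Strip2 had mean signals of 709.5 there, 18.6 with EGF at 4 h, 228.3 in the 12 h controls and 20.6 with EGF at 12 h, so its EGF means were below the added offset. They differed at 12 h, where Lims2 was lower with EGF (log2 -2.96), Arhgef26 less so (-2.34) and Filip1l least (-0.47). The likeness is a description chosen on these arrays, and no test was made.

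**Figure D4:**
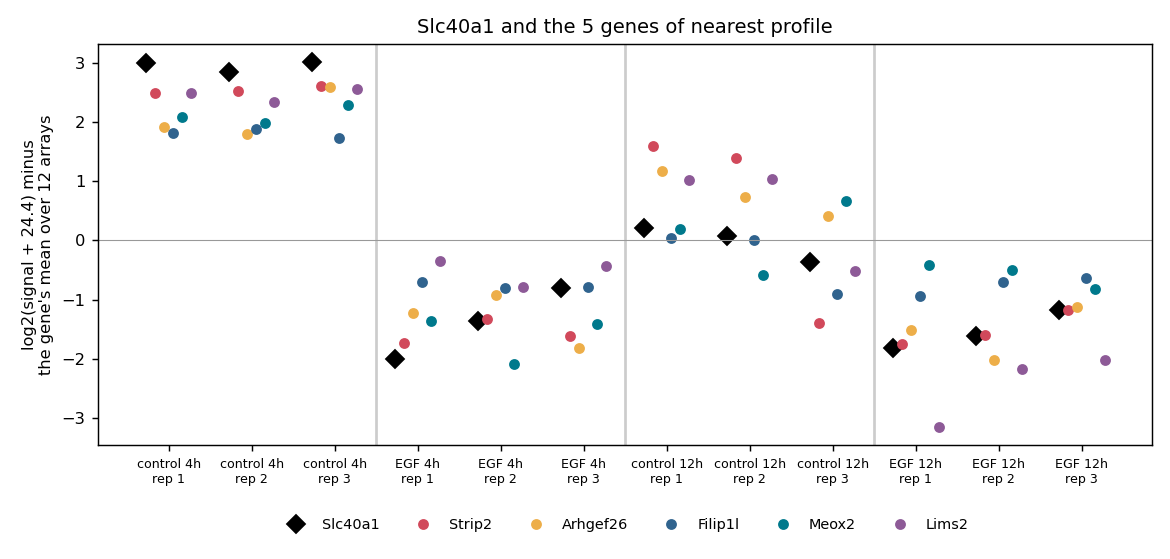
Log2(signal + 24.4) minus the gene's own mean over 12 arrays, for Slc40a1 (black diamonds) and the 5 genes nearest to it, on each array, with grey lines between the 4 groups. All 6 genes lie highest in the 4 h controls, and the EGF arrays of both times lie below 0.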

How the data were processed

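The authors deposited MAS5 intensity values, on a linear scale, per the submitters' processing notes, which name no version. The 2% trimmed means of the 12 arrays lay between 1500.46 and 1500.56, and medians between 305.5 and 415.2. No detection calls were used. Precision is limited by the number of arrays. The 57 control probe sets and 12417 dim ones (mean under the 40th percentile, 215.4) were left out. Group means of log2(signal + 24.4), the offset being the 10th percentile, were fitted over all 12 arrays with limma 3.58.1 in R 4.3.3 (trended empirical Bayes), two-sided, and p-values were adjusted by Benjamini-Hochberg over the 18625 tested probe sets and a threshold of 0.05. The method was tested on simulated data. Symbols come from the platform annotation: 20832 probe sets carried 1 symbol, 436 several and 9831 none.

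The members and lists were chosen with earlier results of these data known. From the wider list, genes past the threshold with a change of at least 1 log2 unit, and up to 2 of smallest p per sub-list and time, are named. The motifs were searched after the sequences had been seen. Alternatives covered the offset, filter, scaling, trend, probe set choice, array set, replicate block and leaving out each array. After removing group means, same-numbered arrays correlated at 0.121, 0.150 and 0.376 at 4 h, and at 0.083, -0.111 and -0.103 at 12 h; the replicate numbers come from the titles. Figures were drawn with matplotlib 3.10.9.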

Additional observations from a re-analysis of the deposited data

Results flagged for a closer look

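For 12 genes the EGF effect on the log2 scale differed between 4 h and 12 h by limma's test of that difference (12 h minus 4 h). Each was lower at 12 h, which can be a smaller rise, a larger fall or a change of sign. They were 3 of the 7 members that could be tested and 9 of the 63 genes of the wider list, with 0 higher in either. Over all probe sets tested, 6.11% were lower and 5.45% higher. Among the 8 iron genes these were Cp (-1.02, adjusted p = 0.00491), the leading Slc11a2 probe set (-0.87, adjusted p = 0.00647) and Tfrc (-0.76, adjusted p = 0.0299). In the wider list they were Scara5 (-2.60, adjusted p = 0.000288), Hmox1 (-1.92, adjusted p = 0.000161), Fbxl5 (-1.90, adjusted p = 0.00145), Slc25a37 (-1.60, adjusted p = 0.00679), Slc39a8 (-1.34, adjusted p = 0.0127), Slc25a28 (-1.27, adjusted p = 0.0226), Epas1 (-1.16, adjusted p = 0.00898), Nfe2l2 (-0.98, adjusted p = 0.00533) and Slc31a1 (-0.65, adjusted p = 0.0493). The call of Slc31a1 was lost in 17 of 23 alternatives, with values from -0.77 to -0.17 and adjusted p up to 0.700, among them leaving out any 1 of the arrays but EGF replicates 1 and 3 of 12 h. That of Slc25a28 was lost without EGF replicate 1 or 2 or control replicate 3 of 4 h, or control replicate 1 or 2 of 12 h (adjusted p up to 0.0599). Those of Slc11a2 and Tfrc were lost with the mean over their probe sets (adjusted p = 0.498 and 0.109), and the Cp difference did not pass on its other probe sets. The times differ in array set and actin 3′ to 5′ ratio as well as in duration, which cannot be told apart. Hmox1 and Fbxl5 were past the threshold with opposite signs at 4 h and 12 h, though the 12 h call of Hmox1 was lost under several alternatives. Slc40a1 was selected on its 4 h values, so its difference of 2.83 was not tested. Groups of 3 arrays were not examined for outlying samples.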

How the results depend on the processing

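Over 752 alternative values of the 8 genes, 717 counted as the same, 24 lost the call and 8 gained one. Tested values counted as the same when they kept their side of the threshold. Slc40a1 values without a test were compared by sign and size. Of these, 3 moved (with the mean over its probe sets), and the rest are among the 717. None of the called results reversed. Results that were not called could change sign and still count among the 717, as Fth1 did at 4 h with median centring (-0.06 to 0.14). Among the 8 gained was Slc11a2 between the controls. With the mean over its probe sets it went from 0.29 to -0.65 (limma, adjusted p = 0.00944). The number of members called at 4 h went from 2 to 1, by the loss of Cp, under median centring, no dim filter, no intensity trend, the replicate block and without the replicate 3 pair, and was 1 to 2 when 1 array was left out. The replicate block changed no other member call. Between the controls it went from 3 to 5 under median centring and was 3 to 5 with 1 array left out. For the difference between the times it went from 3 to 1 with the mean over probe sets (2 to 3 with 1 array left out).

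In the wider list, 11 genes rose at 4 h; this was 17 with each experiment alone, 19 with the array set as a block and 8 to 19 with 1 array left out. The 15 that fell were 5 under median centring, 9 without the replicate 3 pair and 10 to 18 with 1 array left out. At 12 h the 9 that rose were 5 to 10 with 1 array left out. For the difference between times, limma called 0 higher (6 at an unadjusted p under 0.05), against 3 with the array set block and 0 to 2 with 1 array left out. Keap1 between the controls reversed with the mean over its probe sets, from 0.66 to -0.98. Fits of each experiment alone give no value between the times, and the stricter filter removes dim genes. The causes of these changes were not tested. Signals near the offset of 24.4 have compressed fold changes.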
